A study of Mus musculus with 10 samples.

Results

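The 36 genes described here encode the steps of glycolysis, the carriers that bring in glucose and export lactate, and well-known members of the response to low oxygen. They were taken by symbol from the gene tables of the series, each of which held 48897 rows, and all 36 were found in both tables. RNA-seq was measured in 10 mouse libraries in 4 groups. Prostate epithelial cells (EpCAM+ and CD45-) were sorted from 3-month-old C57BL/6 mice. There were 3 control libraries (A, B and C) and 3 libraries (A, B and C) labelled Arid1a KO, in which by their labels Arid1a was deleted. The study describes this deletion as made by Cre under the probasin promoter, which is active in prostate epithelium. All 6 epithelium libraries share a further deletion made in the same way, so the controls are not wild type. Myc-CaP is a prostate cancer cell line of FVB background derived from a mouse with a prostate Myc transgene. Of its 4 libraries, 2 carried an empty vector and the other 2 came from cells given lentiviral guide RNAs against Arid1a (Arid1a KO), and whether a knockout line was 1 clone is not given in the sources used here. The question put to these genes was whether they differed between libraries with and without the Arid1a deletion, in each system on its own.

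Glycolysis breaks glucose down to pyruvate in the cytosol, and lactate dehydrogenase turns pyruvate into lactate when it is not burned in mitochondria. Under low oxygen the prolyl hydroxylases (EGLN enzymes) no longer mark the HIF alpha subunits for destruction, and HIF then binds a short DNA core, ACGTG or GCGTG, near genes for glucose uptake, glycolysis, blood vessel growth and acid export. Myc, which drives the Myc-CaP line, is known to raise transcription of glycolytic enzymes through the E-box CACGTG.

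The HIF core was looked for in the 250 bases before the start site of each member, in the RefSeq promoter table of GRCm38.p6. Of the 36 members, 32 had an entry, and Slc2a3, Epas1, Ndrg1 and Bnip3l had none. Where a member had several start sites, the one nearest to the 5′ end of the GENCODE M21 gene was used. Both strings of letters were searched on both strands, and each E-box CACGTG holds 2 overlapping matches, 1 on each strand. At least 1 match was present in 25 of the 32 windows (78.1%), against 38.6% of all 32851 windows of the same length. The ACGTG form was present in 16 of 32 (50%), against 16.6% of all windows, and an E-box in 4 of 32 (12.5%), against 6.02%. The 32851 windows hold every start site listed for a gene, while each member had 1 window. Some members were also listed because they are known genes of the response to low oxygen. Members had more G and C in these windows (median 62.8%, against 52.4% over all windows). The part of these 3 points in the shares of matches was not tested. Printed here are 5 windows that lie outside the M21 exons of their genes. They are those of Hif1a, the member with the largest difference in the epithelium, of Vegfa and Adm, a pair of HIF targets that moved in opposite directions there, of Ldha, which held the most ACGTG matches, and of Pfkm, which fell in both systems. Each is read 5′ to 3′ along the gene and ends at the base before the start site, and capitals mark the matches.
Hif1a (chr12:73907617-73907866, plus strand): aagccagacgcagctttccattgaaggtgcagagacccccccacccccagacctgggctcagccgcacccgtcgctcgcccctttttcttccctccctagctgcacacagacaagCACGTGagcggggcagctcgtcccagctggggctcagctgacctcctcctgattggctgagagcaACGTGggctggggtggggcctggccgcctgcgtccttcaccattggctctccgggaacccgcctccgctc
Vegfa (chr17:46032378-46032627, minus strand): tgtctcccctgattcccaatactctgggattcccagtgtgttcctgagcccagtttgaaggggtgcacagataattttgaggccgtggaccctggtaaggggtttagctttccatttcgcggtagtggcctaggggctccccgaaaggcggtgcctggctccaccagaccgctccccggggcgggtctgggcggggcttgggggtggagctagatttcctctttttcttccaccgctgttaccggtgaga
Adm (chr7:110627407-110627656, plus strand): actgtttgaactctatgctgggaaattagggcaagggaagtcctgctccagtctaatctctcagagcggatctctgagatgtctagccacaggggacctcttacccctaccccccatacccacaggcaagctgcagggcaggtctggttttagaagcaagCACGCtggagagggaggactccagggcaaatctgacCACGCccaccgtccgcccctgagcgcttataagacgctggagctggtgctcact
Ldha (chr7:46845554-46845803, plus strand): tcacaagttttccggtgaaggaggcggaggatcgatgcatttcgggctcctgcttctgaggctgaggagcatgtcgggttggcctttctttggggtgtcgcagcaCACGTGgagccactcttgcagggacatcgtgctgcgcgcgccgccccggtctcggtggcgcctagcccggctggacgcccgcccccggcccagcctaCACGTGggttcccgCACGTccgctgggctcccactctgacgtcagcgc
Pfkm (chr15:98092339-98092588, plus strand): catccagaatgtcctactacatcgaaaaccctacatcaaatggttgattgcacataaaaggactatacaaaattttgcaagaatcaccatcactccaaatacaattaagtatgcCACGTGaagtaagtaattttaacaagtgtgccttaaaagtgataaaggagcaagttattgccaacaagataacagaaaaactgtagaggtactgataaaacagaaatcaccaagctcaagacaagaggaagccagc
The Ldha window held 5 matches, among them 2 E-boxes, and the Hif1a window held 3, among them 1 E-box. The Adm window held 2, both of the GCGTG form, and the Pfkm window held 1 E-box and no other match. The windows of Aldoc, Pfkfb3 and Pfkfb4, which held 1 match each, reach into M21 exons and are not printed. No match lay in the Vegfa window, which says only that these letters are not in these bases. The Pfkm window belongs to 1 of 4 start sites, lies at the outermost of them, and had a GC content of 36.4%, the lowest of the 32. The windows of Hif1a and Ldha lie inside their M21 genes, which start at 73901375 (chromosome 12) and 46841475 (chromosome 7). Matches were found in 12 of the 14 windows of members that rose in the epithelium and in 5 of 5 of those that fell, and in 8 of 13 of those that did not pass the test. The median GC content of these windows was 65.2%, 56.8% and 59.2%, in that order. No such split was made over all genes. A match is a description of the letters and not of a bound factor.

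The labels were checked first. Arid1a (chromosome 4, GRCm38) was at 27.8, 21.9 and 26.5 RPKM (reads per kilobase of gene, scaled to the mapped reads of the library) in controls A to C and at 31.1, 28.8 and 30.8 RPKM in the libraries labelled Arid1a KO. Every library labelled KO lay above every control (log2 fold change 0.25 ± 0.0939 SE, adjusted p = 0.0540 by limma), and the rise passed at a minimum mean of 5 (adjusted p = 0.0465), after quantile normalization (0.0424), with libraries scaled to the same sum (0.0130) and without control A (0.0346). Arid1a was therefore not lower in the libraries labelled KO, and the epithelium groups are called by their labels throughout. A deletion of part of a gene can leave the rest of its transcript counted, and the values per gene do not show which exons were read. In Myc-CaP, Arid1a was at 60.5 and 61.0 TPM (abundance per length, scaled to the same total in every library) with the empty vector and at 39.5 and 40.3 TPM in Arid1a KO (log2 fold change -0.59 ± 0.0576 SE, adjusted p = 0.0102 by limma, and 0.0984 to 0.111 with 1 library left out). The sorted epithelium expressed Epcam at 279 to 351 RPKM in the controls and 183 to 225 RPKM in the libraries labelled KO. The CD45 gene Ptprc was nevertheless present, at 26.0 to 30.3 RPKM in the controls and 56.2 to 58.1 RPKM in the libraries labelled KO. The summed level of 10 macrophage markers was 2747 to 3151 RPKM in the controls and 5035 to 5786 RPKM in the libraries labelled KO, and all 10 rose, as did 6 of 6 general leukocyte markers (summed level 747 to 768 RPKM against 1182 to 1277 RPKM). Of 10 neutrophil markers 5 rose and 1 fell, of 9 lymphocyte markers 5 rose, and of 6 endothelial markers 1 rose. Of 6 fibroblast markers 3 fell, and of 6 epithelial markers 1 rose and 3 fell. The shares that moved were 60% (neutrophil), 55.6% (lymphocyte), 16.7% (endothelial), 50% (fibroblast) and 66.7% (epithelial). Of all genes tested in the epithelium, 27.5% rose, 29.6% fell and 57.1% did either. The summed level of 8 seminal vesicle secretory genes was 19464 to 21979 RPKM in the controls and 647 to 1632 RPKM in the libraries labelled KO, and all 8 fell. The summed fibroblast level (1683 to 2456 RPKM in the controls, 1401 to 1971 RPKM in the libraries labelled KO) overlapped between groups. So did the endothelial level (37.1 to 49.7 against 47.5 to 60.6 RPKM). The other summed levels did not overlap and moved with every epithelium difference given below. The part of any marker level in those differences was not tested. In bulk RNA, fewer cells of a type and less RNA per cell cannot be told apart. Myc-CaP libraries had leukocyte markers at or near 0 (summed level 0.0534 to 0.595 TPM), but also had Epcam at 0 to 0.128 TPM and Cdh1 at 0 to 0.386 TPM, so that 2 defining markers of epithelium were near 0 in this line. Of the 6 epithelial markers 3 (Krt7, Krt8 and Krt19) were tested there and all 3 rose, and the summed level of the 6 was 42.9 to 51.2 TPM with the empty vector and 161 to 169 TPM in Arid1a KO. Krt7 was the highest of them with the empty vector, at 41.9 to 49.8 TPM, against 118 to 125 TPM in Arid1a KO. Krt8 was at 1.07 and 0.790 TPM with the empty vector and at 40.3 and 38.8 TPM in Arid1a KO.

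The members together were an abundant group. Their values summed to 0.648% to 0.682% of all RPKM in the epithelium controls and to 0.814% to 0.895% in the libraries labelled KO. In Myc-CaP they took 1.65% to 1.76% of all TPM, with empty vector and Arid1a KO libraries interleaved. The RPKM columns themselves summed to less in the libraries labelled KO (397999 to 403031) than in the controls (441646 to 473331). Scaling every epithelium library to the same sum moves the median log2 difference over all genes from -0.028 to 0.11, and results that turn on this scale are pointed out.

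In the epithelium, all 36 members were tested. A call was an adjusted p under 0.05 by limma on log2(RPKM + 1), with p-values adjusted over all 16275 genes tested. Of the members, 14 rose in the libraries labelled Arid1a KO, 5 fell and 17 did not pass the test. Over all genes tested, 27.5% rose, 29.6% fell and 57.1% passed in either direction, so that the share of members called (52.8%) was near the background. The median log2 difference over the members was 0.13, against -0.028 over all genes. Without control C 8 members and 3909 of all 16217 genes tested rose. Without library B labelled KO 9 members and 3709 of 16266 genes rose. With every library scaled to the same sum, 19 members rose and 4 fell. Over all 16270 genes tested on that scale, 6046 rose and 3277 fell, against 4471 and 4823 before scaling. In Myc-CaP, 31 members were tested, because Slc2a3, Egln3, Car9, Car12 and Ndrg1 had a mean under 0.5 TPM. Of these, 3 rose (Aldoc, Pfkfb4 and Vegfa), 2 fell (Pfkfb3 and Pfkm) and 26 did not pass the test, so that 16.1% of the members tested were called. Over all 13974 genes tested there, 4.54% rose, 1.89% fell and 6.43% passed in either direction, and the median log2 difference was -0.011 over the members and -0.014 over all genes. Without a filter on low values, or without a trend in the variance, only Pfkfb4 passed in Myc-CaP. None of the 5 calls in Myc-CaP held when any 1 of the 4 libraries was left out, which leaves 1 library in a group.

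**Figure D1:**
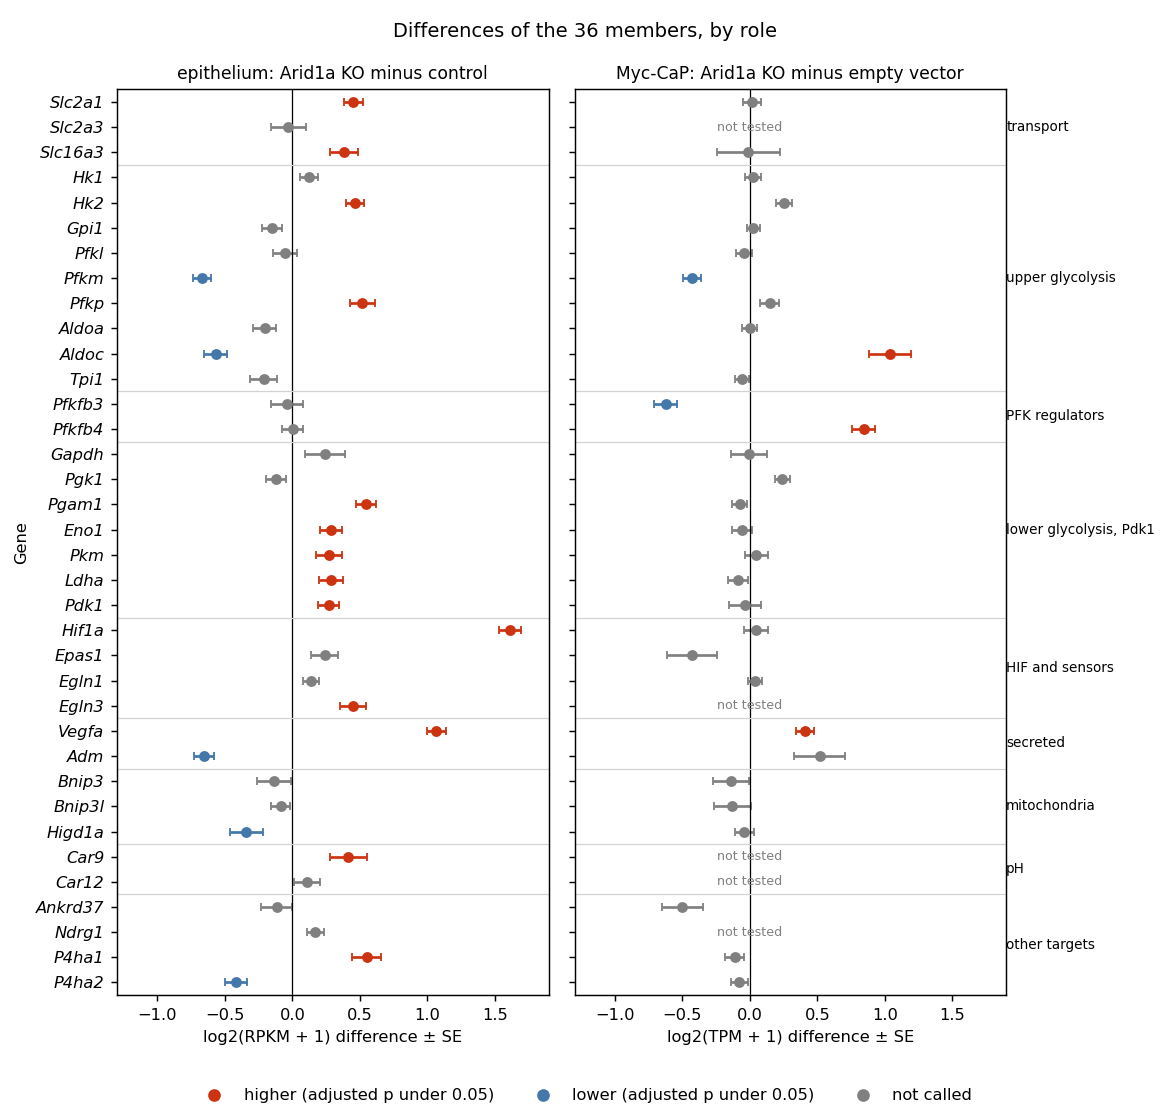
Difference of each of the 36 members between libraries labelled Arid1a KO and controls, on the log2(value + 1) scale with its standard error, in the epithelium (left, 3 against 3 libraries) and in Myc-CaP (right, 2 against 2). In the epithelium Hif1a (1.61) and Vegfa (1.07) lie farthest to the right and Pfkm (-0.67) and Adm (-0.65) farthest to the left, while in Myc-CaP most members lie near 0 and Aldoc (1.04) and Pfkfb4 (0.84) lie to the right.

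The carriers were led by Slc2a1, the glucose transporter GLUT1 (chromosome 4, 119108711 to 119137983 on GRCm38, plus strand). It stood at 88.2, 90.0 and 80.0 RPKM in the 3 controls and at 118, 122 and 114 RPKM in the libraries labelled KO. Every library labelled KO lay above every control (1.37-fold, log2 fold change 0.45 ± 0.0697 SE, adjusted p = 0.00123 by limma). In Myc-CaP, Slc2a1 was at 121 and 116 TPM with the empty vector and at 126 and 115 TPM in Arid1a KO, so the groups overlapped (log2 fold change 0.017 ± 0.0672 SE, adjusted p = 0.922 by limma). Slc16a3, the lactate exporter MCT4, rose in the epithelium from 41.9 ± 1.33 to 55.3 ± 8.0 RPKM (SD, n = 3 each; adjusted p = 0.0161 by limma). That call was lost without control C (adjusted p = 0.0524) or without library B labelled KO (adjusted p = 0.0531). In Myc-CaP Slc16a3 was nearly absent, at 0.416 to 0.800 TPM in all 4 libraries, and the related carrier Slc16a1 made up 98.4% to 99.4% of the summed level of Slc16a1, Slc16a3 and Slc16a7. Slc2a3, the transporter GLUT3, was at 5.27 to 7.68 RPKM in the epithelium with overlapping groups. It was listed at 0 in 3 of the Myc-CaP libraries and was at 0.0557 TPM in the fourth.

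Hexokinase adds the first phosphate to glucose. Hk2, the form that tumours commonly raise, was at 39.9, 40.4 and 38.5 RPKM in the controls and at 53.0, 58.8 and 53.2 RPKM in the libraries labelled KO. The groups did not overlap (1.39-fold, log2 fold change 0.46 ± 0.0643 SE, adjusted p = 0.000773 by limma). In Myc-CaP, Hk2 was at 70.7 and 71.3 TPM with the empty vector and at 82.5 and 87.0 TPM in Arid1a KO. The groups did not overlap there either, but the difference did not pass the test (log2 fold change 0.25 ± 0.0581 SE, adjusted p = 0.0805 by limma). Hk1, the housekeeping form, was at 33.3 ± 2.31 RPKM in the controls and 36.4 ± 0.543 RPKM in the libraries labelled KO (adjusted p = 0.142 by limma), and this passed only when libraries were scaled to the same sum (adjusted p = 0.0161). Hk3, a form found chiefly in myeloid cells and not a member, rose from 8.18, 8.46 and 8.47 RPKM to 20.7, 21.7 and 17.5 RPKM in the epithelium (adjusted p = 5.69e-05 by limma), and was at or near 0 in Myc-CaP. It made up 9.79% to 10.6% of summed hexokinase RPKM in the controls and 16.4% to 18.7% in the libraries labelled KO.

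Phosphofructokinase, the enzyme of the committed step, is built from liver, muscle and platelet subunits. Pfkl, the liver subunit and the most abundant in both systems, did not pass the test in either (54.8 ± 6.75 against 52.4 ± 1.25 RPKM, and 145 ± 6.51 against 141 ± 1.49 TPM). Pfkm, the muscle subunit (chromosome 15, 98092589 to 98132451, plus strand), was at 7.57, 7.97 and 8.51 RPKM in the controls and at 4.61, 4.72 and 4.65 RPKM in the libraries labelled KO. All libraries labelled KO lay below all controls, with little spread among them (0.581-fold, log2 fold change -0.67 ± 0.0693 SE, adjusted p = 0.000205 by limma). Pfkm also fell in Myc-CaP, from 33.2 and 32.2 TPM to 24.2 and 23.9 TPM (0.735-fold, log2 fold change -0.43 ± 0.0658 SE, adjusted p = 0.0309 by limma). The Myc-CaP groups did not overlap, but the adjusted p lay between 0.175 and 0.198 with 1 library left out. Pfkp, the platelet subunit, rose in the epithelium from 9.64, 7.99 and 9.42 RPKM to 13.8, 14.1 and 12.1 RPKM (adjusted p = 0.00232 by limma). In Myc-CaP it was at 22.3 and 22.5 TPM against 25.3 and 24.5 TPM, which did not pass the test (adjusted p = 0.307 by limma).

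Within the phosphofructokinase family, the share of each subunit does not depend on how a library was scaled. The Pfkm share of summed RPKM was 10.2% to 12.8% in the controls and 6.51% to 6.73% in the libraries labelled KO. In Myc-CaP it was 16.2% to 16.5% of TPM with the empty vector and 12.6% to 12.7% in Arid1a KO. The Pfkp share was 10.2% to 14.1% in the controls and 17.6% to 19.8% in the libraries labelled KO, and in Myc-CaP 10.9% to 11.5% with the empty vector and 13% to 13.2% in Arid1a KO. Neither share overlapped between groups in either system. The summed phosphofructokinase level overlapped in the epithelium (66.7 to 78.1 against 69.0 to 72.6 RPKM), and was lower in both Arid1a KO libraries of Myc-CaP (188 and 191 against 195 and 205 TPM). These shares are a description, with families chosen after the values were seen.

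**Figure D2:**
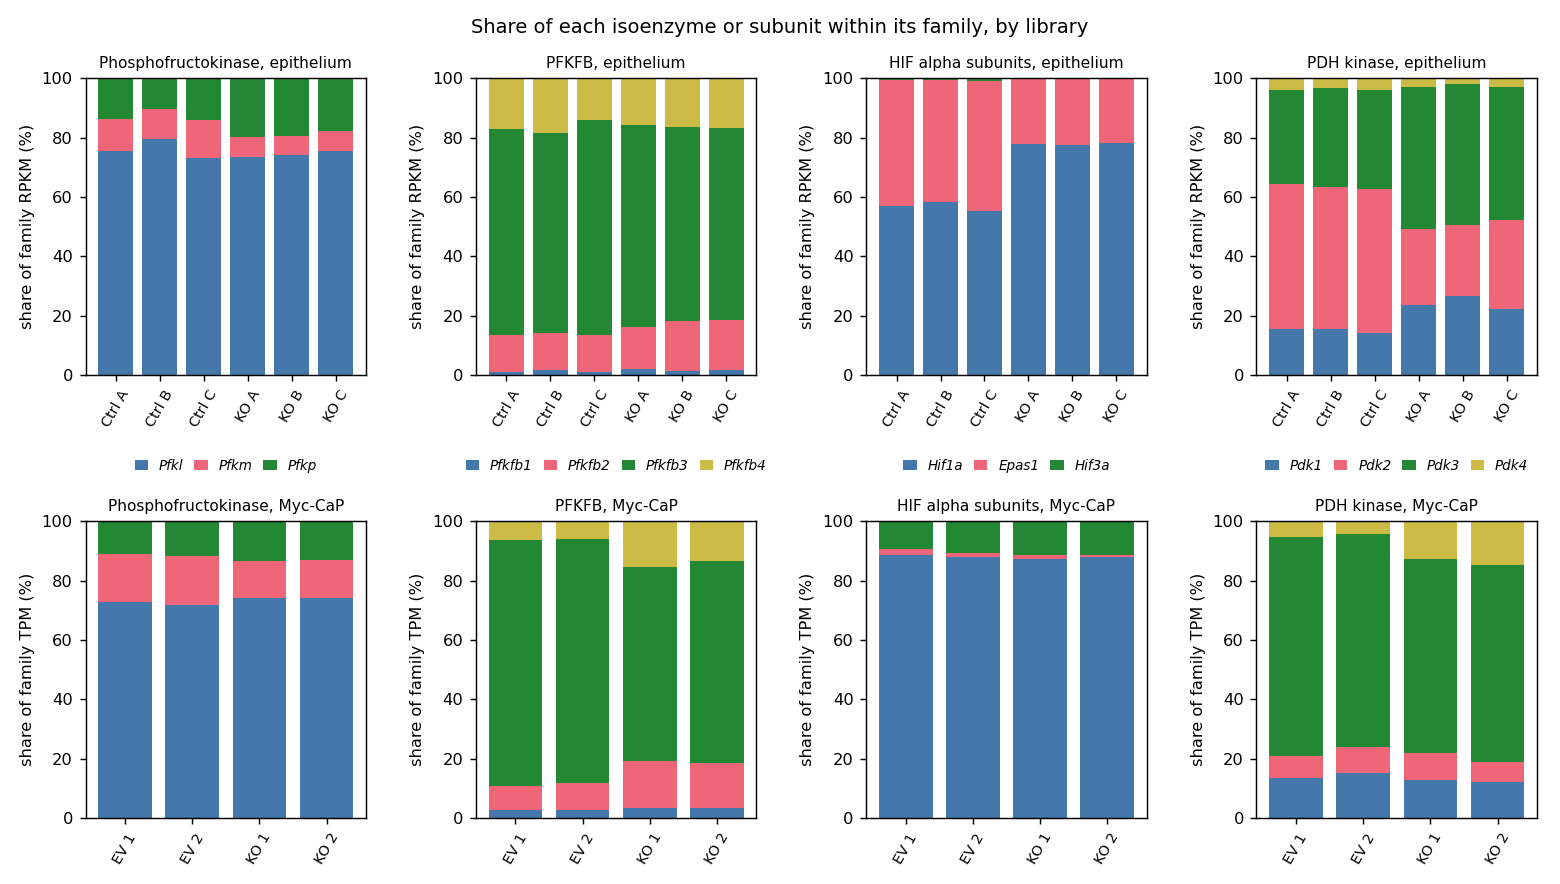
Share of each isoenzyme or subunit in the summed RPKM (epithelium, upper row) or TPM (Myc-CaP, lower row) of its family, 1 bar per library. The Pfkm band is narrower in every library labelled KO in both systems, Hif1a takes 77.5% to 78.1% of the HIF alpha sum in the epithelium libraries labelled KO against 55.5% to 58.4% in the controls, and the Pfkfb4 band widens in Myc-CaP alone.

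PFKFB enzymes set the level of fructose 2,6-bisphosphate, the main activator of phosphofructokinase. In Myc-CaP their 2 members moved in opposite directions. Pfkfb3 (chromosome 2, 11471433 to 11554077, minus strand) was at 123 and 130 TPM with the empty vector and at 76.2 and 86.8 TPM in Arid1a KO (0.646-fold, log2 fold change -0.63 ± 0.0822 SE, adjusted p = 0.0213 by limma). Pfkfb4 (chromosome 9, 108991778 to 109032228, plus strand) was at 9.31 and 9.16 TPM with the empty vector and at 17.8 and 16.9 TPM in Arid1a KO (1.88-fold, log2 fold change 0.84 ± 0.0846 SE, adjusted p = 0.0109 by limma). Neither gene overlapped between groups. With 1 library left out, the adjusted p lay between 0.0814 and 0.155 for Pfkfb3 and between 0.0975 and 0.117 for Pfkfb4. Pfkfb3 remained the most abundant of the family, at 82.3% to 82.8% of its summed TPM with the empty vector and 65.5% to 68.2% in Arid1a KO. In the epithelium neither passed the test, with Pfkfb3 at 23.1 ± 3.90 against 22.2 ± 1.36 RPKM and Pfkfb4 at 5.43 ± 0.469 against 5.43 ± 0.0596 RPKM (SD, n = 3).

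The next enzymes of the upper pathway were abundant and did not pass the test in either system. Gpi1, which interconverts glucose 6-phosphate and fructose 6-phosphate, was at 181 ± 3.34 against 164 ± 12.8 RPKM. Aldoa, the main aldolase, was at 280 ± 24.7 against 242 ± 4.03 RPKM, and Tpi1, which interconverts its products, at 280 ± 37.5 against 240 ± 5.69 RPKM. All 3 were lower in every library labelled KO than in any control, and none passed the test (adjusted p = 0.128, 0.0631 and 0.109 by limma). Of the 9 members from Hk1 to Tpi1, 5 were lower and 3 higher without overlap. Over all genes tested in the epithelium, 34.4% were lower and 32.4% higher without overlap. With libraries scaled to the same sum the difference of Gpi1 turned to 0.028 on the log2 scale, and those of Aldoa and Tpi1 came to -0.029 and -0.034. In Myc-CaP these 3 genes differed by -0.060 to 0.024 on the log2 scale and did not pass.

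Aldoc, a minor aldolase best known from brain, differed in opposite directions in the 2 systems. In the epithelium (gene on chromosome 11, 78322968 to 78327781, plus strand) it was at 7.99, 7.58 and 6.74 RPKM in the controls and at 4.64, 4.33 and 5.08 RPKM in the libraries labelled KO. It fell there with no overlap (0.630-fold, log2 fold change -0.57 ± 0.0868 SE, adjusted p = 0.00118 by limma). In Myc-CaP it was at 2.22 and 2.89 TPM with the empty vector and at 6.70 and 5.86 TPM in Arid1a KO. It rose there with no overlap (2.46-fold, log2 fold change 1.04 ± 0.156 SE, adjusted p = 0.0295 by limma), and with 1 library left out the adjusted p lay between 0.113 and 0.186. Aldoc made up 1.77% to 2.86% of summed aldolase RPKM in the epithelium and 0.227% to 0.680% of TPM in Myc-CaP, so in both systems Aldoa carried nearly all of the aldolase transcript. The difference between the systems was not tested, because the tables were normalized separately.

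In the lower pathway, which yields ATP and pyruvate, 4 enzymes rose in the epithelium. Of the 7 members from Gapdh to Pdk1, 5 rose and 0 fell (71.4% called). Over all genes tested there, 27.5% rose and 57.1% were called in either direction. Pgam1, the phosphoglycerate mutase, was at 72.7, 68.3 and 71.7 RPKM in the controls and at 112, 95.3 and 104 RPKM in the libraries labelled KO (1.47-fold, log2 fold change 0.54 ± 0.0758 SE, adjusted p = 0.000790 by limma). A processed copy of it, Pgam1-ps2, was at 13 to 17.3 RPKM, and reads of the 2 may be shared. Ldha, which makes lactate, was at 293, 338 and 290 RPKM in the controls and at 391, 373 and 357 RPKM in the libraries labelled KO. These groups did not overlap (1.22-fold, log2 fold change 0.29 ± 0.0875 SE, adjusted p = 0.0252 by limma). Eno1, the main enolase, went from 349 ± 23.8 to 426 ± 20.1 RPKM (adjusted p = 0.0208) and Pkm, the pyruvate kinase, from 465 ± 43.1 to 560 ± 29.7 RPKM (adjusted p = 0.0426, both by limma). The calls of Eno1, Pkm and Ldha were each lost without control A (adjusted p = 0.0731, 0.13 and 0.0836), without control C (0.0808, 0.142 and 0.0961), without library A labelled KO (0.0763, 0.121 and 0.0877) and without library B labelled KO (0.0575, 0.112 and 0.0618), and all 3 without a filter on low values (0.0563, 0.113 and 0.0633). The call of Pgam1 was not lost without any library.

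The remaining enzymes of this stretch did not pass. Gapdh was at 259, 289 and 278 RPKM in the controls and at 407, 269 and 314 RPKM in the libraries labelled KO, with overlapping groups (adjusted p = 0.190 by limma). It passed without library B labelled KO (adjusted p = 0.0490), after quantile normalization (0.0339) and with libraries scaled to the same sum (0.0311). Pgk1, the first ATP-yielding enzyme, was at 189, 212 and 185 RPKM against 179, 179 and 179 RPKM (adjusted p = 0.192 by limma), with its direction turned to 0.056 on the log2 scale when libraries were scaled to the same sum. In Myc-CaP none of the 7 members from Gapdh to Pdk1 passed. Ldha was there at 2716 and 2540 TPM with the empty vector and at 2575 and 2366 TPM in Arid1a KO, which overlapped. Pgk1 was at 2204 and 2223 TPM against 2626 and 2598 TPM without overlap (log2 fold change 0.24 ± 0.0549 SE, adjusted p = 0.0798 by limma). Eno1b, a near-identical copy of Eno1, was at 888 to 945 TPM in Myc-CaP and at 0.336 to 0.620 RPKM in the epithelium, so that the Eno1 level in Myc-CaP (2494 to 2806 TPM) may lack reads given to the copy.

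Ratios of members within a library do not depend on its scaling. The ratio of Ldha to Aldoa was 1.08 to 1.11 in the epithelium controls and 1.49 to 1.58 in the libraries labelled KO. The ratio of Pkm to Aldoa was 1.62 to 1.68 against 2.19 to 2.42, that of Eno1 to Aldoa 1.22 to 1.29 against 1.68 to 1.80, and that of Pgam1 to Pgk1 0.323 to 0.388 against 0.531 to 0.628. None of these overlapped, so the enzymes of each pair changed unequally in the epithelium whatever the scale. In Myc-CaP the ratio of Ldha to Aldoa was 2.71 to 2.78 against 2.52 to 2.63 and that of Pgam1 to Pgk1 was 0.462 to 0.474 against 0.367 to 0.387, both lower in Arid1a KO. The pairs were chosen after the values were seen, and no test was made.

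**Figure D3:**
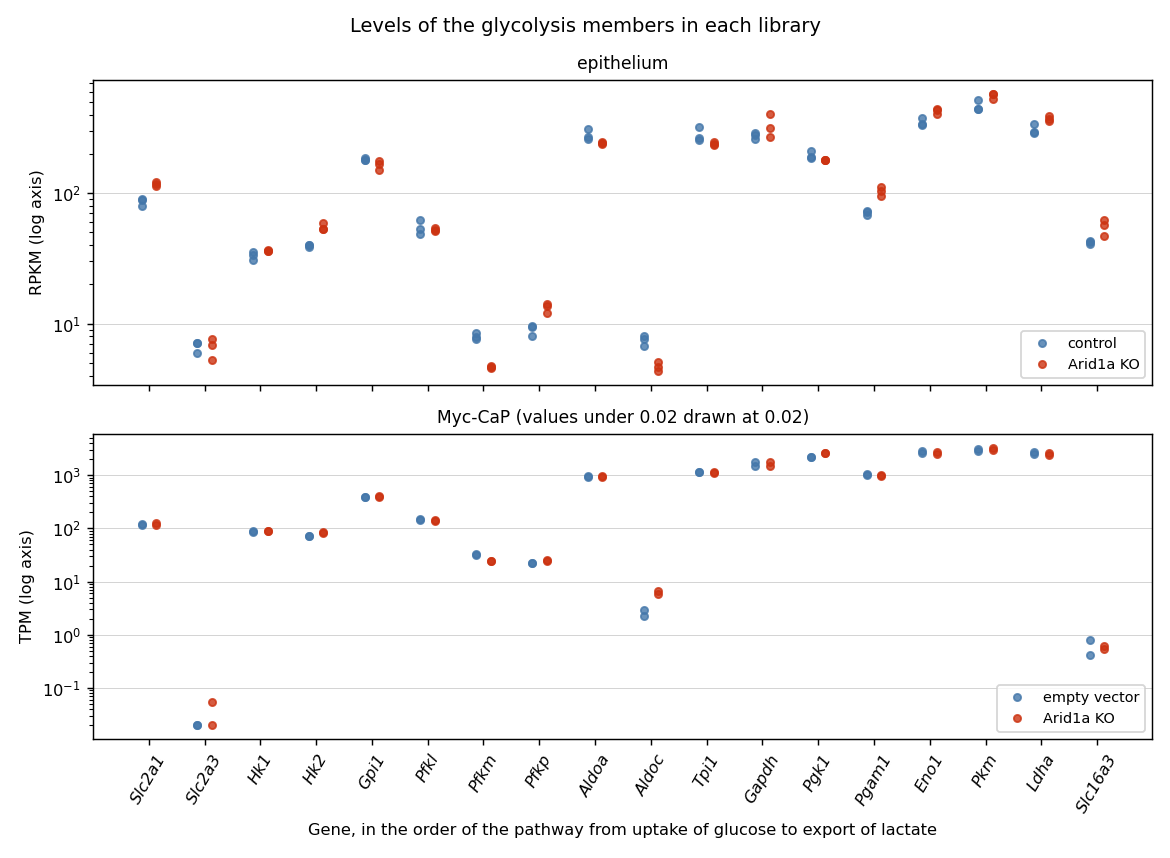
Level of each glycolysis member in every library on a log axis, ordered from glucose uptake to lactate export, in RPKM for the epithelium (top) and TPM for Myc-CaP (bottom). Among the genes plotted, which leave out Eno1b, Pkm stands highest in both systems (440 to 579 RPKM and 2855 to 3266 TPM). Pfkm, Pfkp and Aldoc stand lowest among the enzymes plotted in both. Slc16a3 is at 40.5 to 62.5 RPKM in the epithelium but under 1 TPM in Myc-CaP.

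Ordered by level in the epithelium controls, Pkm (465 ± 43.1 RPKM) stood first, followed by Eno1 (349 ± 23.8), Ldha (307 ± 26.6), Aldoa (280 ± 24.7), Tpi1 (280 ± 37.5), Gapdh (275 ± 15.2), Pgk1 (195 ± 14.4) and Gpi1 (181 ± 3.34). Neighbours from Eno1 to Gapdh differed by less than the sum of their SDs, and so did Pgk1 and Gpi1. In Myc-CaP with the empty vector the order was Pkm (2983 ± 181 TPM), Eno1 (2696 ± 154), Ldha (2628 ± 124), Pgk1 (2213 ± 13.3), Gapdh (1626 ± 226), Tpi1 (1153 ± 6.98), Pgam1 (1036 ± 26.2) and Aldoa (959 ± 28.0). There Pkm and Eno1, and Eno1 and Ldha, differed by less than the sum of their SDs (n = 2). This order leaves out Eno1b, at 888 to 945 TPM in Myc-CaP, whose reads may belong to Eno1.

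Pdk1, a kinase that inhibits pyruvate dehydrogenase in mitochondria, rose in the epithelium from 6.06 ± 0.245 to 7.52 ± 0.652 RPKM (adjusted p = 0.0210 by limma). The call was lost without control C (adjusted p = 0.0745) or without library B labelled KO (adjusted p = 0.0762). Its relative Pdk2, not a member, fell from 19.2, 19.3 and 19.9 RPKM to 7.41, 7.33 and 10.0 RPKM (log2 fold change -1.16 ± 0.112 SE, adjusted p = 0.000160 by limma). The share of Pdk1 in the summed kinase RPKM was 14.2% to 15.6% in the controls and 22.2% to 26.8% in the libraries labelled KO, while the sum was lower in the latter (29.2 to 33.3 against 39.4 to 40.8 RPKM). In Myc-CaP Pdk1 was at 14.0 ± 2.01 against 13.5 ± 0.160 TPM and did not pass the test.

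Hif1a, the oxygen-regulated subunit of HIF-1 (chromosome 12, 73901375 to 73947530, plus strand), showed the largest difference of any member in the epithelium. It was at 25.1, 21.1 and 22.7 RPKM in the controls and at 74.8, 74.4 and 67.2 RPKM in the libraries labelled KO. The lowest library labelled KO was well above the highest control (3.14-fold, log2 fold change 1.61 ± 0.0816 SE, adjusted p = 1.36e-05 by limma). In Myc-CaP Hif1a was at 93.4 and 104 TPM with the empty vector and at 96.5 and 108 TPM in Arid1a KO, with overlapping groups (log2 fold change 0.044 ± 0.0871 SE, adjusted p = 0.824 by limma). HIF activity is chiefly set by the stability of the protein, which RNA does not measure. Epas1, the HIF-2 alpha subunit, was at 17.1 ± 2.06 against 20.3 ± 1.57 RPKM (adjusted p = 0.0749 by limma) and at 1.94 ± 0.176 against 1.19 ± 0.296 TPM (adjusted p = 0.278 by limma). The ratio of Hif1a to Epas1 was 1.27 to 1.42 in the epithelium controls and 3.48 to 3.62 in the libraries labelled KO. In Myc-CaP the ratio was 45.2 to 57.5 with the empty vector and 68.9 to 109 in Arid1a KO, also without overlap. Epas1 was low there, at 0.983 to 2.07 TPM.

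Of the 2 prolyl hydroxylases among the members, Egln3, itself a HIF target, rose in the epithelium from 31.6, 33.2 and 27.1 RPKM to 41.2, 46.6 and 38.8 RPKM (log2 fold change 0.45 ± 0.0987 SE, adjusted p = 0.00621 by limma). In Myc-CaP it was at 0.0484 TPM in 1 empty vector library and listed at 0 in the other 3. Egln1, the main oxygen sensor, was at 18.5 ± 0.778 against 20.5 ± 0.125 RPKM and at 76.0 ± 0.509 against 78.0 ± 1.58 TPM, neither of which passed (adjusted p = 0.0718 and 0.756 by limma). Epas1 and Egln1 in the epithelium passed when libraries were scaled to the same sum (adjusted p = 0.0186 and 0.00734).

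Vegfa, the growth factor for blood vessels (chromosome 17, 46016993 to 46032369, minus strand), was the only member that rose in both systems. It was at 53.3, 48.0 and 49.1 RPKM in the epithelium controls and at 110, 108 and 99.5 RPKM in the libraries labelled KO. All libraries labelled KO lay far above the controls (2.12-fold, log2 fold change 1.07 ± 0.0704 SE, adjusted p = 3.67e-05 by limma). In Myc-CaP it was at 32.8 and 35.0 TPM with the empty vector and at 44.9 and 45.7 TPM in Arid1a KO. The groups did not overlap (1.34-fold, log2 fold change 0.41 ± 0.0669 SE, adjusted p = 0.0364 by limma), and with 1 library left out the adjusted p lay between 0.154 and 0.213. Adm, the vasodilator peptide adrenomedullin and also a HIF target, fell in the epithelium from 15.9, 18.1 and 16.8 RPKM to 10.1, 9.87 and 11.2 RPKM (0.614-fold, log2 fold change -0.65 ± 0.0754 SE, adjusted p = 0.000332 by limma). In Myc-CaP it was at 0.825 and 0.845 TPM against 1.84 and 1.43 TPM, higher in both Arid1a KO libraries but not past the test (adjusted p = 0.203 by limma).

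**Figure D4:**
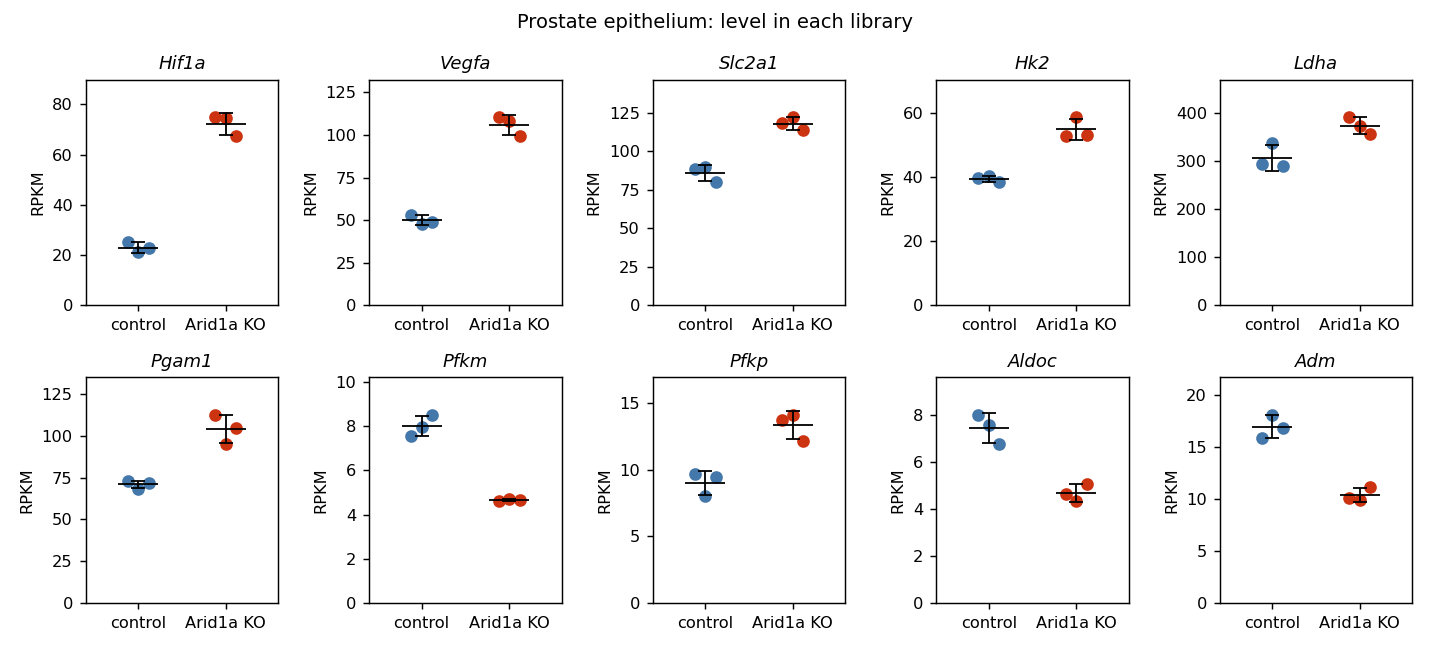
RPKM of 10 members in each epithelium library (points), with the group mean and SD (lines, n = 3), each axis starting at 0. Hif1a and Vegfa show the widest gaps, Pfkm, Aldoc and Adm lie lower in all 3 libraries labelled Arid1a KO, and for Ldha the highest control (338 RPKM) comes close to the lowest library labelled KO (357 RPKM).

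Among the members of mitochondria, Bnip3 and Bnip3l, both receptors for removal of mitochondria, overlapped between groups in both systems. Bnip3 was at 19.6 to 28.0 RPKM over the 6 epithelium libraries and at 189 to 251 TPM over the 4 Myc-CaP libraries, and Bnip3l at 20.2 to 23.7 RPKM and 40.8 to 54.2 TPM. Higd1a, a small respiratory chain protein, fell in the epithelium from 12.9 ± 2.13 to 9.91 ± 1.05 RPKM (adjusted p = 0.0441 by limma). That call was lost without control A (adjusted p = 0.0552), control B (0.0884), library A labelled KO (0.0763) or library B labelled KO (0.139), without a filter on low values (0.0963), without a trend in the variance (0.0517) and with libraries scaled to the same sum (0.189).

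The carbonic anhydrases, which handle acid at the cell surface, were low. Car9, often used as a marker of hypoxia, was at 3.66, 3.51 and 3.30 RPKM in the epithelium controls and at 6.35, 4.83 and 4.0 RPKM in the libraries labelled KO. It rose (1.45-fold, adjusted p = 0.0335 by limma), and the adjusted p was between 0.0604 and 0.0909 without control A, control B, control C, library A labelled KO or library B labelled KO in turn and 0.0814 without a filter on low values. Car12 was at 3.07 ± 0.200 against 3.40 ± 0.414 RPKM and did not pass. In Myc-CaP both lay under 0.5 TPM in every library.

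The 2 prolyl 4-hydroxylase subunits that modify collagen parted in the epithelium. P4ha1 rose from 16.7, 18.0 and 18.6 RPKM to 30.7, 26.4 and 22.9 RPKM (log2 fold change 0.55 ± 0.105 SE, adjusted p = 0.00332 by limma), and P4ha2 fell from 14.2, 14.6 and 15.4 RPKM to 11.7, 11.1 and 9.61 RPKM (0.734-fold, log2 fold change -0.42 ± 0.0825 SE, adjusted p = 0.00389 by limma). Their ratio went from at most 1.23 in the controls to at least 2.38 in the libraries labelled KO. In Myc-CaP the same ratio overlapped between groups, and neither gene passed. Ndrg1, a stress-response gene raised by hypoxia, was at 30.8 ± 1.48 against 34.8 ± 1.41 RPKM (adjusted p = 0.0513 by limma). It passed with a minimum mean of 5 (adjusted p = 0.0488), after quantile normalization (0.0337) and with libraries scaled to the same sum (0.00675), and was under 0.5 TPM in Myc-CaP. Ankrd37 was at 4.16 ± 0.754 against 3.73 ± 0.228 RPKM and at 9.24 and 7.61 TPM against 6.26 and 5.05 TPM, and did not pass in either system (adjusted p = 0.421 and 0.146 by limma).

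**Figure D5:**
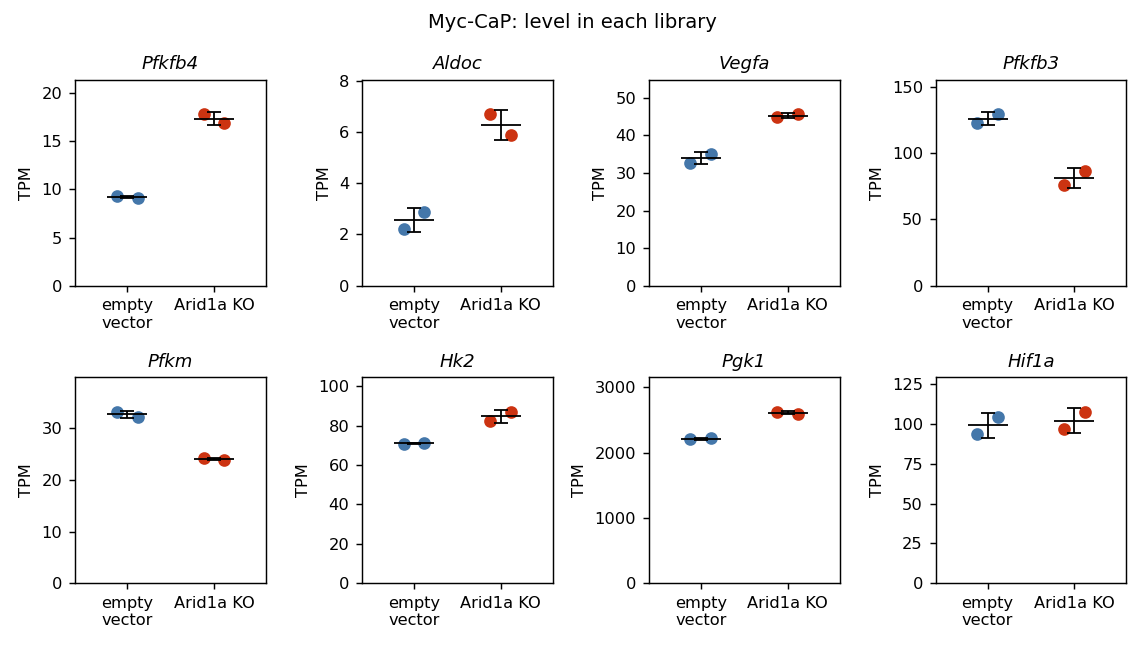
TPM of 8 members in each Myc-CaP library (points), with the group mean and SD (lines, n = 2), each axis starting at 0. Pfkfb4, Aldoc and Vegfa are higher and Pfkfb3 and Pfkm lower in both Arid1a KO libraries, Hk2 and Pgk1 are separated but did not pass the test, and Hif1a overlaps.

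Of the 31 members tested in both systems, 3 passed in both, against 599 of 12123 genes. Pfkm fell in both, Vegfa rose in both, and Aldoc fell in the epithelium and rose in Myc-CaP. The groups did not overlap for 26 of 36 members in the epithelium, against 66.7% of all genes tested, and for 17 of 31 in Myc-CaP, against 51.5% of all genes tested there. Without overlap, 17 members were higher and 9 lower in the epithelium (32.4% and 34.4% of all genes), and 9 were higher and 8 lower in Myc-CaP (24.9% and 26.6%).

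The other genes of the pathway, which are not members, were read from lists. These held 30 further glycolysis genes, 13 genes of pyruvate transport and use in mitochondria, and 30 further genes of the hypoxia response. In the epithelium 64 of these 73 were tested, of which 18 rose and 23 fell (64.1% called). Over all genes tested there, 27.5% rose, 29.6% fell and 57.1% were called. None of the 13 genes of pyruvate transport and use rose and 7 fell (53.8% called, near the 57.1% of all genes tested). Among those that fell were Pdk2 and Pcx, the pyruvate carboxylase (from 8.96 ± 0.269 to 3.18 ± 0.806 RPKM, log2 fold change -1.27 ± 0.138 SE, adjusted p = 0.000260 by limma). Of 28 further hypoxia genes tested, 13 rose and 6 fell (67.9% called). The largest rise was that of Hmox1, the haem oxygenase that macrophages also express (55.2 ± 1.88 to 112 ± 9.69 RPKM, adjusted p = 6.28e-05 by limma). Of 23 further glycolysis genes tested, 5 rose and 10 fell (65.2% called). Beside Hk3, the differences of at least 1 on the log2 scale were falls of Bpgm, which makes 2,3-bisphosphoglycerate (45.7 ± 3.59 to 11.4 ± 0.838 RPKM), of Gpd1, a glycerol 3-phosphate dehydrogenase (13 ± 0.106 to 3.76 ± 1.10 RPKM), and of Fbp1, a gluconeogenic enzyme that opposes phosphofructokinase (5.27 ± 0.694 to 1.52 ± 0.850 RPKM), with adjusted p-values of 7.26e-06, 0.000149 and 0.00138 by limma. With libraries scaled to the same sum, 28 of the 64 rose, as did 6046 of all 16270 genes tested. In Myc-CaP 53 of the 73 were tested, of which 4 rose and 1 fell (9.43% called, against 6.43% of all genes tested), and none of these passed with any 1 library left out. The largest was the rise of Pdk4, a pyruvate dehydrogenase kinase, from 4.92 and 4.43 TPM to 13.3 and 16.6 TPM (log2 fold change 1.48 ± 0.139 SE, adjusted p = 0.00931 by limma), while in the epithelium Pdk4 fell from 1.47 ± 0.123 to 0.799 ± 0.232 RPKM (adjusted p = 0.0106 by limma).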

How the data were processed

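RNA was extracted with Trizol from sorted prostate epithelium (6 libraries) and Myc-CaP cells (4 libraries). The authors aligned reads to GRCm38 (mm10), counted them per gene with HTSeq and deposited the epithelium as RPKM and the Myc-CaP libraries as TPM. The study's methods name TopHat2 and the submitters' processing notes HISAT2. The gene lengths behind either unit are not given in the sources used here. The columns of the series tables were compared with the 10 per-sample files, and 0 values differed. Values were taken as log2(value + 1), genes with a mean of at least 0.5 in a table were tested, and each table was fitted alone with limma 3.58.1 in R 4.3.3 (lmFit, eBayes with a trend). Tests were two-sided with Benjamini-Hochberg adjustment over all genes tested, and a call needed an adjusted p under 0.05. Fold changes understate the change of low genes on this scale. The study names DEGseq, and the submitters' processing notes list DESeq2. Both take counts, which these units do not give. The study's thresholds were a fold of 1.5 and p under 0.05. From the steps between low RPKM values, the depth of the epithelium libraries lay between 0.972 and 1.23 times that of control A. Absolute depth is unknown, TPM keeps none, and no counting interval is given. The methods give n = 3 mice for the sorted epithelium, but the labels tie no library to an animal and name no separate source for the Myc-CaP libraries, so p-values measure the spread between these libraries, which may be technical. The labels give no batch. The deletion that all epithelium libraries share is not reported here. Exons of Hif1a, Pfkm and Pkm overlap those of another annotated gene on the same strand, and how such reads were counted is not given in the sources used here.

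The text names all 36 members, with values in every library for those called with a log2 difference of at least 0.58 and for Slc2a1, Hk2, Ldha, Vegfa and Hif1a. Of the other lists it names called genes with a difference of at least 1. Some further values per library, and the ratios and shares, were chosen after the values were seen. The members and the lists were chosen with earlier results of these data known. The alternatives were a pseudocount of 0.1, no filter on low values, a minimum mean of 5, quantile normalization, the same sum in every epithelium library, eBayes without a trend, a replicate block, and leaving out each library. Gene coordinates are from GENCODE M21 on GRCm38 and promoter windows from RefSeq on GRCm38.p6. The same letters did not pair the epithelium libraries (correlations of same-letter deviations -0.0573 to 0.0409 across genes).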

Additional observations from a re-analysis of the deposited data

Results flagged for a closer look

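For 6 members every library labelled Arid1a KO lay on one side of the controls in the epithelium and on the other side in Myc-CaP. The difference between the systems was not tested, because the tables were normalized separately. The log2 differences in the epithelium and in Myc-CaP were -0.57 and 1.04 for Aldoc, -0.65 and 0.52 for Adm, 0.54 and -0.075 for Pgam1, 0.55 and -0.11 for P4ha1, -0.15 and 0.024 for Gpi1, and -0.12 and 0.24 for Pgk1. Of these, Aldoc passed the test in both systems, Adm, Pgam1 and P4ha1 passed in the epithelium, and Gpi1 and Pgk1 passed in neither and turned in the epithelium when libraries were scaled to the same sum. The 6 are 19.4% of the 31 members tested in both systems, against 19.2% of 12123 genes.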

How the results depend on the processing

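In the epithelium the calls of Slc2a1, Hk2, Pfkm, Pfkp, Aldoc, Pgam1, Hif1a, Egln3, Vegfa, Adm, P4ha1 and P4ha2 held under every alternative. With 1 library left out, 8 to 14 members rose (8 without control C, 9 without library B labelled KO), as did 3709 to 4267 of all genes tested. With libraries scaled to the same sum, 28 other pathway genes rose, as did 6046 of all 16270 genes tested. On that scale these log2 differences turned: Slc2a3 0.12, Gpi1 0.028, Pfkl 0.12, Pfkfb3 0.13, Pgk1 0.056, Bnip3 0.034, Bnip3l 0.083 and Ankrd37 0.027. At a minimum mean of 5, 15 other pathway genes fell, as did 3005 of all 9027 genes tested. With 1 library left out, the sign turned within -0.13 to 0.10 for Slc2a3, -0.14 to 0.036 for Pfkl, -0.18 to 0.057 for Pfkfb3 and -0.028 to 0.062 for Pfkfb4.

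In Myc-CaP, 1 member rose and 0 fell without a filter on low values, and the same counts were found without a trend. Other pathway genes passed in 8 cases (4 lower) at a minimum mean of 5, in 8 (4 lower) after quantile normalization and in 3 (2 higher) without a trend. Of all genes tested, 9.63%, 6.68% and 3.23% passed under these settings. With any 1 library left out, 0 members and 0 other pathway genes passed by limma (5 to 7 and 12 to 14 at an unadjusted p under 0.05). The lone library of a group was then assumed to vary like the other group. The log2 difference turned to 0.0053 for Slc16a3 at a pseudocount of 0.1 and to 0.042 for Aldoa after quantile normalization. With 1 library left out it ranged over 0, from -0.049 to 0.082 for Slc2a1, -0.18 to 0.16 for Slc16a3, -0.016 to 0.058 for Hk1, -0.090 to 0.0012 for Pfkl, -0.031 to 0.029 for Aldoa, -0.15 to 0.14 for Gapdh, -0.035 to 0.13 for Pkm, -0.18 to 0.099 for Pdk1, -0.036 to 0.12 for Hif1a, -0.31 to 0.029 for Bnip3, -0.27 to 0.013 for Bnip3l and -0.10 to 0.019 for Higd1a. The cause was not tested.

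Libraries of the 2 groups share only a letter or number, so pairing was not assumed. In Myc-CaP the same-number correlation across genes was 0.195, and with 2 libraries in a group the second pair only repeats the first. With the replicate block, 13 members rose and 4 fell in the epithelium, where Pkm (adjusted p = 0.0598) and Higd1a (0.0795) did not pass and Arid1a rose (0.0337). In Myc-CaP the block added Hk2 (0.0149), Pgk1 (0.00228), Ldha (0.0297) and Ankrd37 (0.0276), so that 9 members passed by limma (5 higher, 4 lower), as did 19 other pathway genes (12 higher, 7 lower) and 19.8% of all genes tested.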
